A study of Mus musculus with 18 samples.

Results

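The stretch of the mouse heavy chain locus described here is Ighg1, the constant gene of the IgG1 antibody class (gene ID 16017), together with the DNA upstream of it as far as Ighg3. It covers chr12:113326541-113357441 in the mm10 assembly, 30.901 kb. Its members were chosen by position alone, as every fragment end listed between these limits in any library. A fragment end is a 24 bp interval beside a cut site of the restriction enzyme, and it is the unit in which contacts were counted. There were 146 such ends among the 56916 listed on chromosome 12. Ighg1 is read toward lower coordinates, so the gene body (chr12:113326541-113330523) held 23 ends and the upstream part (chr12:113330524-113357441) held 123. Distances below are in kb upstream of the gene start at 113330523.

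The measurements were 4C-seq, which amplifies and sequences all fragments ligated to 1 bait. The bait lay in Eμ, the intronic enhancer of the heavy chain locus. Its position was inferred as the most read end of chromosome 12 over the libraries with read numbers (chr12:113426025-113426048). That end lies 68.6 kb from the near side of the interval and 99.5 kb from its far side. The cells were mouse splenic CD43-negative B cells, either WT or carrying a mutation of Med1. Med1 is part of Mediator, the coactivator through which enhancers act on RNA polymerase II. There were 6 groups of 3 libraries: WT and Med1 mutant cells resting on day 0, after 2 days with LPS and IL4, and after 2 days with LPS alone. Titles of the mutant libraries contain the string Med1KO or MED1KO. The mutant allele, the driver of any deletion, and the strain and age of the mice are not given in the sources used here. 4C-seq reads DNA contacts and no RNA, so neither the loss of Med1 nor the identity of the cells could be checked by marker genes.

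Class switching replaces the constant gene expressed by a B cell. The enzyme AID acts on repetitive switch regions upstream of the constant genes, and joining the switch region upstream of Ighm to that upstream of Ighg1 removes the DNA between them and gives IgG1. IL4 together with LPS induces germline transcription of Ighg1 and Ighe, whereas LPS alone favours Ighg3 and Ighg2b. The γ1 switch region lies in the upstream part of this interval, after the germline promoter, but its limits are not annotated in the gene table used, so positions are given relative to the gene only.

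The 12 resting and LPS + IL4 libraries held 2470497 to 21074434 reads, and between 15195 and 246570 reads of each lay in the interval. In the 6 LPS libraries covered ends are listed without read numbers, and depth is unknown there. For replicate 2 of activated WT cells the culture protocol lists anti-CD40 and IL4 instead of LPS and IL4. Titles of the resting and LPS + IL4 WT libraries contain the string WTKO, and the genotype label (WT) was followed. Nothing in the labels says that replicates came from separate animals, so p-values measure the spread between these libraries, which may be technical. The 12 libraries also fell into 2 sets of 6 that no label names: mutant replicate 1 with WT replicates 1 and 2, and mutant replicates 2 and 3 with WT replicate 3. They differed at 87 ends of chromosome 12, of which 9 lay in the interval. The rule that picked these ends asked for at least 50 reads in at least 5 libraries of the second set. It also asked for under 50 reads in every library of the first. Those 9 ends took 11.0% to 13.6% of the reads of the interval in the second set and at most 0.0216% in the first. The rule itself builds in this contrast. The reverse rule picked 1 end of chromosome 12.

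Of the 146 ends, 35 were covered in all 18 libraries, 48 in all 12 libraries with read numbers, and 6 in 1 library only. For 125 of them the end across the same cut site was listed too, so neighbouring ends often report 1 cut. No end was listed between 13.9 and 20.1 kb upstream, a gap of 6.23 kb and by far the longest of the interval, so contacts of that stretch were not measured. Reads were spread over many ends: with groups weighted equally, the 10 most read ends took 40.0% of the reads of the interval and the most read single end 6.67%.

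Activation with LPS and IL4 raised the contact of Eμ with the Ighg1 interval in both genotypes. Levels are given as the share of the chromosome 12 reads that lay over 5 kb from the bait. In WT cells the interval took 1.84%, 1.54% and 1.69% of these reads in resting replicates 1 to 3, and 3.27%, 3.07% and 3.22% after LPS + IL4. All 3 activated libraries lay well above all 3 resting ones. The mean went from 1.69% ± 0.150 to 3.19% ± 0.106 (SD, n = 3 each), 1.89 times the resting level. On the log2 scale the change was 0.92 ± 0.09 (SE; edgeR quasi-likelihood test on summed reads, two-sided, Benjamini-Hochberg adjusted p = 4.7e-07 over 29 elements of the locus). Of those 29 elements 55.2% passed in this comparison, 31% as higher, and at 65.5% the groups did not overlap. For each constant gene except Ighm the body, the upstream part and their sum are separate elements. Such elements share reads, so shares of the 29 elements count some reads more than once, those of Ighg1 included. Neither a call nor a lack of overlap alone set the interval apart. Without replicate 2, the library with the anti-CD40 label, the log2 change was 0.94.

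In Med1 mutant cells the interval took 1.496%, 1.60% and 1.80% in its resting libraries against 2.65%, 2.42% and 2.65% with LPS + IL4. Here too the groups did not overlap. The mean rose from 1.63% ± 0.156 to 2.57% ± 0.131 (SD, n = 3 each), 1.57 times the resting level, with a log2 change of 0.65 ± 0.09 (SE, edgeR adjusted p = 1.9e-05). In this comparison 44.8% of the elements passed, 20.7% as higher, and at 65.5% the groups did not overlap. Within the first and the second library set the log2 change of the interval was 0.91 and 0.93 in WT and 0.82 and 0.57 in the mutant. Over both genotypes, an exact permutation test of the activation labels within genotype gave a mean log2 difference of 0.79 with p = 0.005, the smallest its 400 arrangements allow (adjusted p = 0.0167 over 10 tests).

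**Figure D1:**
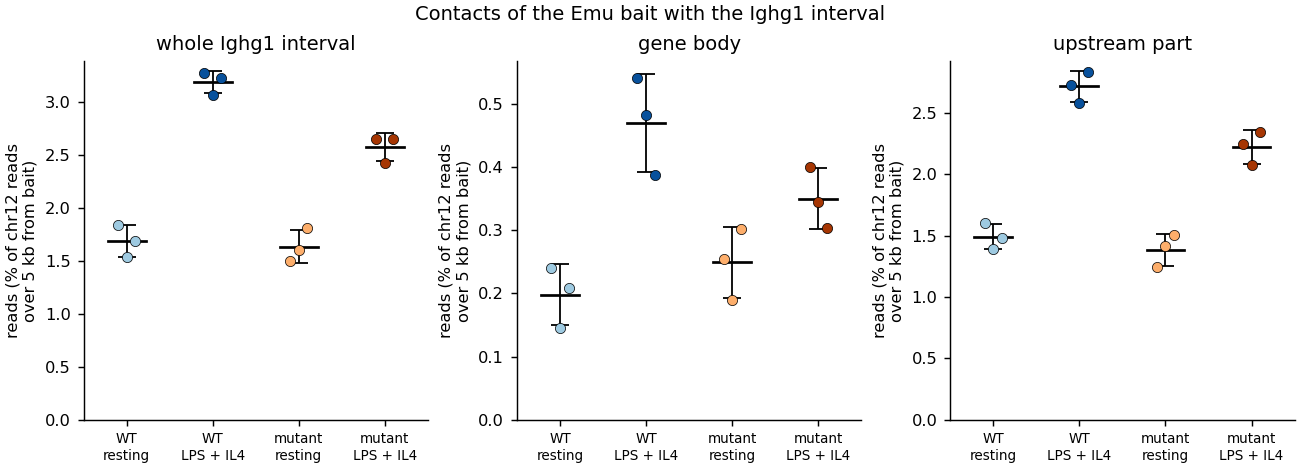
Share of chromosome 12 reads over 5 kb from the bait that fell in the whole Ighg1 interval, in the gene body and in the upstream part (vertical axes, %), for each of the 12 libraries with read numbers (points) with the mean and SD of each group. Activated libraries of both genotypes lie above the resting ones in all 3 panels, and in the interval panel the activated mutant libraries (2.42% to 2.65%) lie below the activated WT ones (3.07% to 3.27%).

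The gene body and the upstream part both gained contact. The body, which holds the constant region exons, took 0.240%, 0.146% and 0.208% in resting WT libraries and 0.540%, 0.483% and 0.387% in activated ones. The groups did not overlap, and the log2 change was 1.25 ± 0.24 (edgeR adjusted p = 3.1e-04). In resting mutant libraries the body took 0.255%, 0.190% and 0.302%, and in activated ones 0.400%, 0.344% and 0.304%. The lowest activated library lay only just above the highest resting one, and the log2 change of 0.49 ± 0.23 did not pass (edgeR adjusted p = 0.105). It passed when the replicate number was taken as a block (log2 0.51, edgeR adjusted p = 0.0443). Mutant libraries of equal number deviated together only weakly (r of 0.255, 0.130 and 0.135) and also share a library set. Whether they are paired is not known.

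The upstream part, which holds the switch region, went from 1.49% ± 0.104 to 2.72% ± 0.126 in WT (log2 0.87 ± 0.10, edgeR adjusted p = 2.3e-06). In the mutant it went from 1.38% ± 0.132 to 2.22% ± 0.135 (log2 0.68 ± 0.10, adjusted p = 2.5e-05). The body took 11.6% ± 1.90 of the reads of the interval in resting WT cells, 14.8% ± 2.41 in activated WT cells, 15.2% ± 2.92 in resting mutant cells and 13.6% ± 1.90 in activated mutant cells (SD, n = 3 each). These ranges overlap, and the exact permutation test of activation on this share gave a difference of 0.771 percentage points with p = 0.6.

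Inside the interval the gain was uneven. The windows called as higher lay in the gene and the first 10 kb upstream of it, with the highest reads from 5 to 10 kb upstream (chr12:113335524-113340523). That 5 kb window took 0.597%, 0.512% and 0.519% in resting WT libraries and 1.44%, 1.25% and 1.502% in activated ones. Its mutant values were 0.510%, 0.430% and 0.4997% at rest, against 1.04%, 0.994% and 1.14% in activated cells. In both genotypes every activated library was above every resting one. Groups did not overlap at 18.5% of the windows of the locus in WT and at 14.8% in the mutant. The log2 change of this window was 1.36 ± 0.14 in WT (edgeR adjusted p = 1.4e-05 over 779 windows of 5 kb) and 1.14 ± 0.14 in the mutant (adjusted p = 1.0e-04).

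The window from the gene start to 5 kb upstream rose from 0.249% ± 0.0650 to 0.633% ± 0.0266 in WT (log2 1.34, adjusted p = 0.00353) and from 0.248% ± 0.0515 to 0.483% ± 0.0905 in the mutant (log2 0.96, adjusted p = 0.0388). The window over the gene, which runs 1 kb past its end, rose in WT (log2 0.88, adjusted p = 0.0322). In the mutant its log2 change was 0.62 (adjusted p = 0.222). From 10 to 15 kb upstream the log2 change was 0.21 in WT (adjusted p = 0.907) and 0.02 in the mutant. The WT groups did not overlap there either (0.320% to 0.346% at rest, 0.353% to 0.395% when activated), and the mutant groups did. From 20 to 25 kb the log2 change was -0.24 and -0.09, and neither passed. Thus 3 of the 5 windows of the interval passed in WT and 2 of 5 in the mutant, all as higher, against 2.18% and 2.44% of the 779 windows of the locus (1.28% and 1.16% as higher).

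The call from 5 to 10 kb upstream held in both genotypes under all 16 other settings of the window fit, which included each library left out in turn. The call from the gene start to 5 kb held under 16 of 16 in WT and under 6 of 16 in the mutant, and the call over the gene in WT under 10 of 16. With the replicate block, 1 window of the interval passed in the mutant in place of 2.

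At a finer scale the highest reads and the lowest adjusted p lay in 1 stretch. The 2.5 kb from 7.5 to 10 kb upstream held 30 ends and went from 0.436% ± 0.0622 to 1.19% ± 0.162 in WT, 2.73 times the resting level (edgeR adjusted p = 2.9e-04 over 1400 windows of 2.5 kb). In the mutant it went from 0.409% ± 0.0633 to 0.916% ± 0.0597, 2.24 times (adjusted p = 0.00189). The next 2.5 kb upstream, with 15 ends, took 0.262% ± 0.0289 and 0.278% ± 0.00679 in WT and 0.291% ± 0.0800 and 0.229% ± 0.0284 in the mutant. There the resting and activated means differed by less than the larger SD. From 12.5 to 15 kb, with 7 ends, the values were 0.0674% ± 0.0266 and 0.103% ± 0.0169 in WT, 1.53 times, and 0.0497% ± 0.0340 and 0.117% ± 0.0206 in the mutant, 2.35 times. Neither passed (edgeR adjusted p = 0.911 and 0.474), but the mutant fold there was no smaller than that from 7.5 to 10 kb. Over the locus 1.36% of these windows passed in WT and 1.29% in the mutant.

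**Figure D2:**
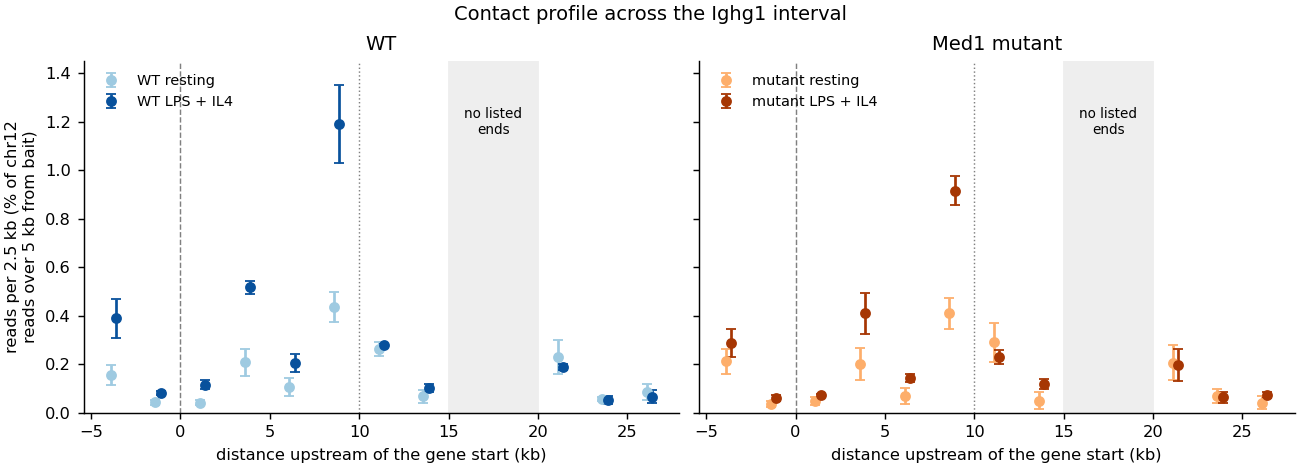
Reads per 2.5 kb (% of chromosome 12 reads over 5 kb from the bait, mean and SD of 3 libraries) against distance upstream of the gene start in kb, resting and LPS + IL4, for WT and Med1 mutant cells. The dashed line is the gene start, the dotted line lies 10 kb upstream, and no end was listed in the grey stretch. The highest activated value is that from 7.5 to 10 kb (1.19% in WT and 0.916% in the mutant), and beyond 10 kb all values lie below 0.3%, with the mutant from 12.5 to 15 kb going from 0.0497% to 0.117%.

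The interval was therefore also divided at 10 kb upstream, a limit taken from a setting listed earlier, into the gene with its first 10 kb (95 ends, 13.983 kb) and the rest (51 ends, 16.918 kb, which contains the gap). This division was made after the profile had been seen. The rest took 0.709%, 0.602% and 0.785% in resting WT libraries and 0.661%, 0.730% and 0.673% in activated ones. Mutant libraries had 0.540%, 0.692% and 0.738% at rest, and with LPS + IL4 0.621%, 0.679% and 0.736%. Resting and activated libraries overlapped in both genotypes, and the activated mean was 0.985 times the resting one in WT and 1.03 times in the mutant. The gene with its first 10 kb went from 0.990% ± 0.123 to 2.497% ± 0.143 in WT, 2.52 times, and from 0.977% ± 0.0802 to 1.89% ± 0.143 in the mutant, 1.94 times.

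The ratio of the near to the far share, per kb, does not depend on the library size. It was 1.93, 1.88 and 1.39 in resting WT libraries and 4.78, 3.87 and 4.58 in activated ones. Mutant libraries gave 2.14, 1.59 and 1.75 at rest, and 3.94, 3.10 and 3.14 when activated. All 6 activated libraries lay above all 6 resting ones. The log2 ratio was higher after activation by 1.36 in WT and 0.90 in the mutant, 1.13 on average (exact permutation test within genotype, p = 0.005, the smallest possible; adjusted p = 0.015 over 12 tests). Because the division was drawn on the same libraries, this p describes them and is no independent test. Over 15 other settings the average ranged from 0.99 to 1.19.

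**Figure D3:**
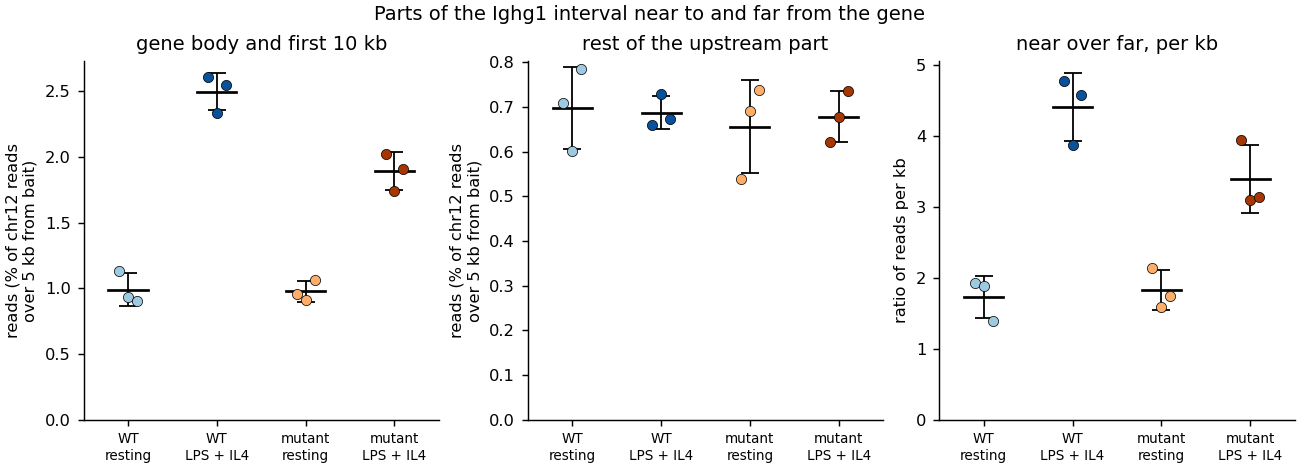
Share of chromosome 12 reads over 5 kb from the bait in the gene with its first 10 kb and in the rest of the upstream part (%), and the ratio of their reads per kb, for each of the 12 libraries (points) with group mean and SD. The left and right panels separate activated from resting libraries, and the middle one does not (0.540% to 0.785% at rest, 0.621% to 0.736% after activation).

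By single fragment ends, which hold the same reads, the division appeared as a shift of many ends and not as a few called ones. Of the 146 ends 126 had a mean of at least 10 reads and were tested among 5318 ends of the locus. This filter is on the mean over all 12 libraries of reads not scaled for depth. Activated mutant replicate 2, by far the deepest, weighed most in it, and an end could pass through that library alone. In WT 89 of the 126 had a higher estimate after activation and 37 a lower one, with a median log2 change of 1.08, where the median of all tested ends was 0. In the mutant 91 were higher and 35 lower, with a median of 0.64 (0.15 over all tested ends). Over the locus 2638 of the 5318 tested ends were higher in WT and 2808 in the mutant. With edgeR none of the 126 passed in either genotype, and 0.376% and 0.32% of the 5318 ends passed (0.169% as higher in each genotype). An unadjusted p under 0.05 was found at 14 of the 126 ends in WT (11.1%, against 7.92% of the 5318) and at 8 in the mutant (6.35%, against 7.45%). DESeq2 was not run on single ends.

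In the gene and its first 10 kb, 68 of 82 tested ends had a higher estimate in WT (median log2 1.498) and 70 of 82 in the mutant (median 1.004). Beyond 10 kb the counts were 21 of 44 in both genotypes, with medians of -0.01 and -0.09. The division was drawn on these same reads, and neighbouring ends often report 1 cut. The counts of ends therefore describe the division and are no independent test of it. In WT the 3 activated libraries were above all 3 resting ones at 32 of the 82 near ends and below them at 1. At the 44 far ends this was so at 5 and 0. Over the locus 11% of tested ends had groups that did not overlap in one direction or the other. In the mutant the near ends gave 17 above and 0 below, and the far ends 3 and 2, where the share over the locus was 9.78%.

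Among the 10 most read ends, 4 lay between 9.15 and 9.82 kb upstream, 2 in the gene body and 2 beyond 10 kb. The end at 113340055 to 113340078, 9.53 kb upstream, took 0.0562%, 0.0330% and 0.0270% in resting WT libraries and 0.134%, 0.163% and 0.239% in activated ones. Resting mutant libraries had 0.0470%, 0.0369% and 0.0672%, activated ones 0.125%, 0.109% and 0.0761%. Activated libraries were above resting ones in both genotypes. It had the lowest adjusted p of the 10 in WT (log2 2.21 ± 0.42, edgeR adjusted p = 0.0526), just outside the threshold, and a log2 change of 1.04 in the mutant (adjusted p = 0.5005).

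The most read end of all, at 113326833 to 113326856 near the far side of the gene body, took 0.116%, 0.0276% and 0.106% in resting WT libraries and 0.246%, 0.208% and 0.172% in activated ones. Its mutant values were 0.117%, 0.1002% and 0.167% at rest, against 0.252%, 0.172% and 0.130% in activated cells. The WT groups were apart and the mutant ones overlapped, and neither change passed (log2 1.32 and 0.53, edgeR adjusted p = 0.462 and 0.802). By contrast the end at 113342730 to 113342753, 12.2 kb upstream, took 0.0890%, 0.0949% and 0.0799% in resting WT cells, and 0.105%, 0.0754% and 0.0777% in activated ones. Its mutant values were 0.0468%, 0.0948% and 0.122% at rest, against 0.0373%, 0.0347% and 0.0337% in activated cells, with no overlap but no call (log2 -1.32, adjusted p = 0.5005). The 10 ends together took a similar share of the interval in each group (37.2% to 42.9% on average; exact permutation p = 0.85 for activation).

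**Figure D4:**
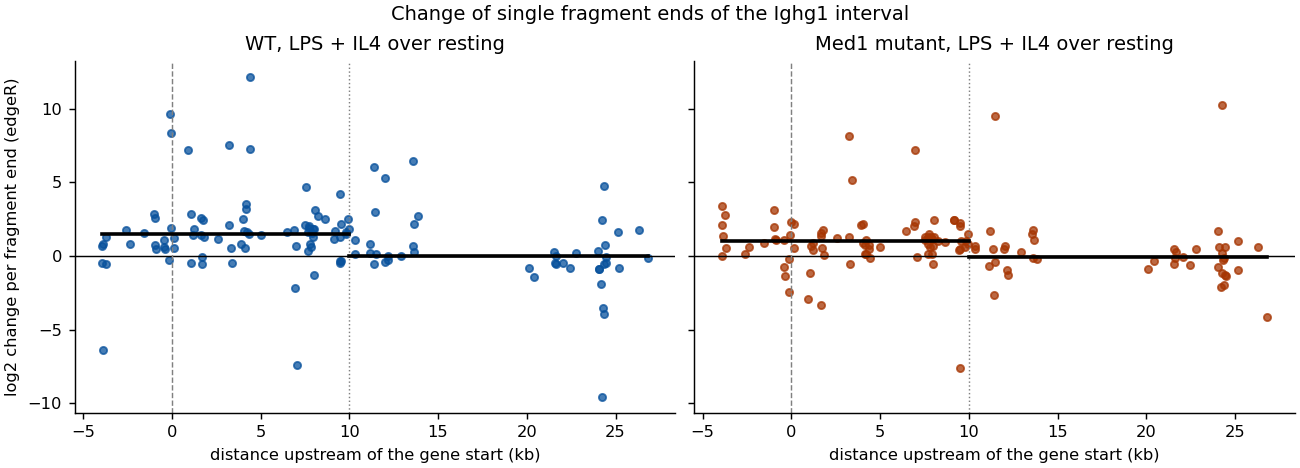
Log2 change of each tested fragment end of the interval after LPS + IL4 (edgeR) against its distance upstream of the gene start in kb, for WT and Med1 mutant cells. The dashed and dotted vertical lines are the gene start and 10 kb upstream. Most points up to 10 kb lie above 0 (68 of 82 in WT and 70 of 82 in the mutant), and those beyond 10 kb lie on both sides; very large values are ends with hardly any reads in 1 of the groups.

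Read numbers at single ends were more alike within an unlabelled library set than within a group. As a description over the 126 tested ends, log2 values of libraries of the same group and the same set had a Pearson r of 0.516 to 0.839 (median 0.701), and those of the same group in different sets 0.360 to 0.578 (median 0.504). Libraries of different groups had a median r of 0.670 within a set and 0.463 between sets. The 9 ends picked for their difference between the sets were among the 126, so part of this likeness was built in. Values without these ends were not computed. Libraries share their ends and differ in depth, so no p is given.

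The Med1 mutant did not differ from WT in this interval at rest beyond the spread between libraries. Its mean share was 0.967 times the WT mean, the libraries overlapped, and the log2 difference was -0.05 ± 0.09 (mutant minus WT, edgeR adjusted p = 0.836). For the body the log2 difference was 0.33 (adjusted p = 0.350) and for the upstream part -0.11. At rest 0% of the 29 elements passed, and so did 0% of the 779 windows and of the 5318 ends.

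After LPS + IL4 the mutant interval took 0.807 times the WT share, and its 3 libraries (2.42% to 2.65%) lay below the 3 WT libraries (3.07% to 3.27%). In this comparison the groups did not overlap at 27.6% of the 29 elements. The interval was 1 of 3 elements that passed (10.3% of 29, all lower in the mutant), with a log2 difference of -0.31 ± 0.09 (edgeR adjusted p = 0.0430). The others were the Ighg3 interval (log2 -0.26, adjusted p = 0.0430) and its upstream part. These 2 are not separate regions: in activated WT cells the upstream part took 4.96% and the whole Ighg3 interval 5.48%. The edgeR p of the Ighg1 interval before adjustment was 0.00357. Its adjusted value was set by the row of the Ighg3 upstream part, which repeats reads of the Ighg3 interval. Neither the body (log2 -0.43, adjusted p = 0.235) nor the upstream part (-0.29 ± 0.10, adjusted p = 0.0617) passed alone. Within the library sets the log2 difference was -0.26 and -0.35.

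The call was kept under 13 of 25 other settings. Among these were the fit of only the groups compared (log2 -0.31, edgeR adjusted p = 5.1e-04) and the library set as a block (-0.32, adjusted p = 0.0213). With TMM factors the log2 difference was -0.12 (adjusted p = 0.432), where the median element moved from -0.06 to 0.14, and with DESeq2 it was -0.17 (adjusted p = 0.301). It was lost when any 1 of the 6 LPS + IL4 libraries was left out, and also without mutant resting replicate 3 or WT resting replicate 1, with adjusted p of up to 0.173. Without WT replicate 2, the one with the anti-CD40 label, it was -0.34 (adjusted p = 0.108). Without mutant replicate 2, by far the deepest library, it was -0.27 (adjusted p = 0.144). Over resting and activated libraries together, the exact permutation of genotype within condition gave a log2 difference of -0.18 with p = 0.045 (adjusted p = 0.09 over 10 tests). For the upstream part the same exact permutation gave -0.20 with p = 0.025 (adjusted p = 0.0625).

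The genotype difference after activation lay in the near part by its values. The mutant took 0.758 times the WT share in the gene with its first 10 kb, with no overlap, and 0.986 times in the rest, where libraries overlapped. Of the tested near ends 24 of 82 had a higher estimate in the mutant (median log2 -0.39), and of the far ends 23 of 44 did (median 0.04), against a median of -0.11 over all tested ends. The difference in the log2 ratio of near to far was -0.38 in activated libraries (exact permutation p = 0.2, smallest possible 0.1) and 0.08 in resting ones (p = 0.7), so it did not exceed the spread between libraries. No window of 5 kb and no end passed for genotype after LPS + IL4 (edgeR, 0% of 779 and of 5318; an unadjusted p under 0.05 was found at 4 of the 126 ends, 3.17%, against 4.51% of all tested ends).

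Whether activation acted differently in the mutant was tested directly as the difference of the activation effects. By its estimate the interval gained less in the mutant, with a log2 difference of -0.26 ± 0.12 that did not pass (edgeR adjusted p = 0.578). The body gave -0.76 ± 0.33 (edgeR adjusted p = 0.578) and the upstream part -0.18. Of the 29 elements, 779 windows and 5318 ends 0% passed. Without WT LPS + IL4 replicate 2 the value for the interval was -0.29, and over all 24 other settings it ranged from -0.38 to -0.08.

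Per kb, the Ighg1 interval was at a low level among the constant gene intervals in resting cells. Each interval runs from a constant gene to the next one upstream, and levels were adjusted neither for the number of cut sites nor for stretches without a listed end, such as the 6.23 kb gap of Ighg1, so the order of close values is not read. In resting WT cells Ighg1 took 0.0546% ± 0.00487 per kb, Ighe 0.0644% ± 0.00749, Igha 0.0723% and Ighg2c 0.0835% ± 0.0303. Ighg2b took 0.112%, Ighg3 0.199% and Ighd, the constant gene next to Ighm, 0.659%. In activated WT cells Ighg1 took 0.103% ± 0.00344 per kb, within the SD of Ighe (0.101% ± 0.00985), Ighg2c (0.0984% ± 0.0113) and Ighg3 (0.109% ± 0.00842). In the mutant it went from 0.0529% to 0.0832% ± 0.00424 per kb, within the SD of Igha (0.0808% ± 0.0175).

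The intervals between Ighg1 and the bait went the other way. The Ighg3 interval, 202 ends, fell by 0.87 on the log2 scale in WT and by 0.95 in the mutant, and the Ighd interval fell by 1.23 and by 1.11 (all edgeR, adjusted p at most 2.1e-07). Gene bodies did not all follow. The Ighg3 body gave -0.12 in WT and -0.21 in the mutant (edgeR adjusted p = 0.611 and 0.291). For the Ighm body the values were -0.12 and -0.27 (edgeR adjusted p = 0.425 and 0.0595). Neither body passed in either genotype. The Ighg2b interval on the other side of Ighg1, 93 ends, rose by 0.52 and 0.50. Since all shares are of the same total, a fall in one interval raises the share of the others. Recombination to Ighg1 removes from a cell the DNA of Ighm, Ighd and Ighg3, and the upstream DNA of Ighg1 on the bait side of the junction. The part of either in the rise of Ighg1 was not tested. The far part of the interval lies between the near part and the bait. Its activated mean was 0.985 times the resting one in WT and 1.03 times in the mutant. How much of the far part recombination removes was not tested.

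The elements whose log2 share was most like that of the Ighg1 interval over the 12 libraries were the Ighg2b interval (Pearson r = 0.963, Spearman rho = 0.916), the middle VH segments (0.902 and 0.923) and the 3' regulatory region, the enhancer cluster beyond Igha (0.819 and 0.734). These libraries fall into a resting and an activated cluster, and the values are given as a description with no p. Around their group means the r was 0.479, 0.194 and 0.367.

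With LPS alone only covered ends could be compared. Of the 146 ends the WT LPS libraries covered 109, 96 and 104 and the mutant ones 91, 94 and 85. The mutant libraries were all lower, by 13 ends on average, which is the smallest p an exact permutation test of 3 against 3 allows (p = 0.1). Against all covered ends of chromosome 12 over 5 kb from the bait the order was gone. The interval made up 1.12%, 1.27% and 0.999% of these in WT and 1.23%, 1.05% and 1.28% in the mutant. The log2 difference of 0.07 ± 0.14 did not pass (limma adjusted p = 0.795; 0% of the 29 elements passed). Mutant LPS libraries covered fewer ends in the whole genome on average (50807 against 56808), and the part of depth in the number of covered ends was not tested.

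The interval's share of covered ends with LPS alone was also set beside the other cultures, though culture, deposit and aligner cannot be told apart there. Against LPS + IL4 the log2 difference was 0.11 ± 0.14 in WT (limma adjusted p = 0.540; 0% of 29 elements passed) and 0.18 ± 0.14 in the mutant (adjusted p = 0.240; 55.2% passed). Against rest it was -0.10 and -0.14, with adjusted p of 0.982 and 0.680, and 3.45% of the elements passed in each genotype. None of the 4 values of the interval passed. Near and far parts were covered about equally with LPS: 69.1% ± 3.04 and 73.2% ± 9.06 of their ends in WT, and 61.1% ± 3.16 and 62.7% ± 6.79 in the mutant (SD, n = 3 each). With LPS + IL4 the near part had 81.4% ± 7.17 of its ends covered in WT and 81.4% ± 8.04 in the mutant, and at rest 68.1% ± 7.47 and 66.7% ± 0.608. The far part had 75.8% ± 7.42 and 82.4% ± 11.8 with LPS + IL4, and 71.9% ± 9.87 and 69.9% ± 4.08 at rest. In the mutant the mean covered part thus went up by a similar amount in the near and the far part. Its activated libraries differed widely. Replicate 2, by far the deepest, had 88.4% of near and 94.1% of far ends covered. Replicate 1 had 72.6% and 70.6%, and replicate 3 had 83.2% and 82.4%. The part of depth in these values was not tested.

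**Figure D5:**
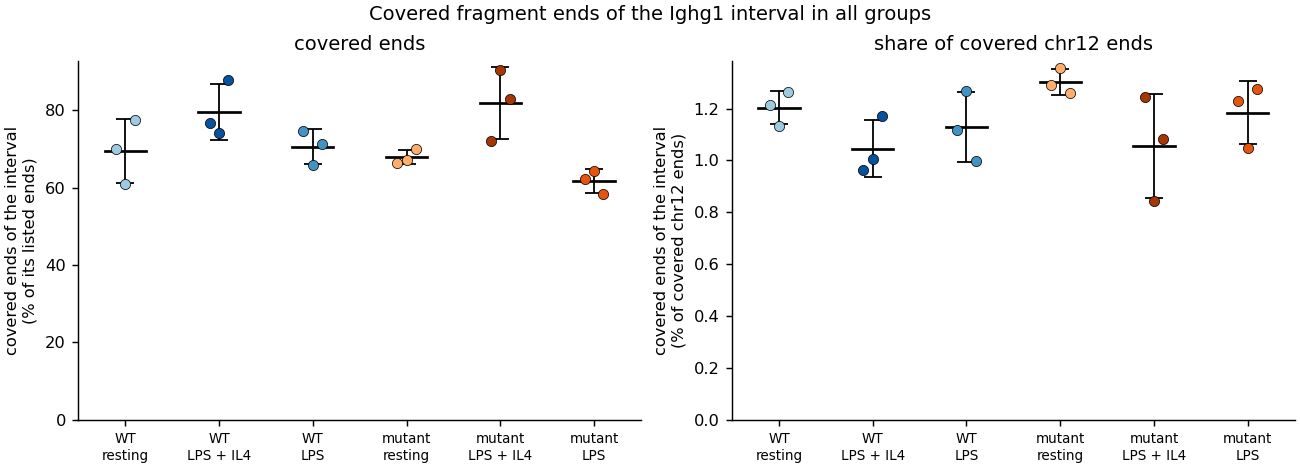
Covered ends of the Ighg1 interval in all 18 libraries (points, with mean and SD of each of the 6 groups), as a percentage of its 146 listed ends and as a percentage of the covered chromosome 12 ends over 5 kb from the bait. In the first panel the LPS libraries of the mutant lie below those of WT, and in the second these groups overlap (1.05% to 1.28% and 0.999% to 1.27%).

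Covered ends and reads gave different orders for LPS + IL4 against rest. The covered part of the interval went from 69.4% ± 8.23 to 79.5% ± 7.25 of its ends in WT and from 67.8% ± 1.81 to 81.7% ± 9.30 in the mutant. As a share of the covered chromosome 12 ends it went from 1.20% ± 0.0647 to 1.05% ± 0.111 and from 1.30% ± 0.0505 to 1.06% ± 0.201. On this measure the log2 change was -0.21 in WT and -0.34 in the mutant, opposite in sign to that of the reads, and neither passed (edgeR adjusted p = 0.333 and 0.0640). No end of the interval was absent from all 6 resting libraries and present in all 6 LPS + IL4 libraries.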

How the data were processed

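The libraries were 4C-seq of mouse splenic B cells, cut with DpnII and Csp6I per the labels' protocols. For resting and LPS + IL4 cultures, the 12 deposited tables give whole-number read counts at each covered fragment end, not normalized, as the file headers describe. The 6 deposited LPS files list covered ends without another value. Per the submitters' processing notes reads were mapped to mm10 with Bowtie, and with Bowtie2 for LPS; filters are not given in the sources used here. Reads carry no molecular identifiers, so errors cover counting of PCR products.

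Gene positions came from the RefSeq table (GRCm38.p6), in which 8 of 8 constant genes were matched. Reads were summed per element, per 5 kb window (mean of at least 10 reads) and per end, from 1 Mb on the constant side to 3 Mb on the VH side, and fitted over the 12 libraries with edgeR 4.0.16 in R 4.3.3 (quasi-likelihood, robust, group means, library size the chromosome 12 reads over 5 kb from the bait, no TMM). Covered ends were fitted with limma 3.58.1 on log2 of (ends + 1) per covered chromosome 12 end. All tests were two-sided with a threshold of 0.05. The fits were tested on simulated data. The windows and the 10 most read ends were named by rule. Members, lists and the rule were chosen with earlier results of these data known, and the division at 10 kb was added after the profile was seen. The 3' regulatory region was placed as the 35 kb beyond Igha, and is approximate.

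Equal replicate numbers were checked for pairing. Resting and LPS + IL4 mutant libraries of equal number deviated together weakly (r of 0.255, 0.130 and 0.135), while WT libraries did not (-0.04, 0.01 and -6.2e-04). Unequal numbers were not compared, and mutant libraries of equal number share a library set, so pairing is not established. Alternatives were TMM, DESeq2 1.42.0, other library sizes, bait neighbourhoods, windows and intervals, capped reads, covered ends, blocks, and each library left out.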

Additional observations from a re-analysis of the deposited data

How the results depend on the processing

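The rise of the interval with LPS + IL4 kept its direction and call under 24 of 25 other settings in each genotype. Leaving out 1 library gave log2 changes of 0.85 to 0.98 in WT and 0.59 to 0.73 in the mutant. With covered ends in place of reads the sign turned for the interval (-0.21 in WT, -0.34 in the mutant), the body (-0.20 and -0.34) and the upstream part (-0.21 and -0.34). After activation 79.5% (WT) and 81.7% (mutant) of the listed ends of the interval were covered; the cause was not tested.

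The genotype difference at rest changed sign with TMM (0.0705), DESeq2 (0.0626) and covered ends (0.11) and ranged from -0.12 to 0.0184 with 1 library left out; for the upstream part these 3 settings gave 0.0113, 0.0041 and 0.10. TMM and DESeq2 rescale whole libraries and so shift all elements. The interval was itself the median element without them (-0.05) and with them (0.0705 and 0.0626). A comparison with that median therefore cannot show whether the interval moved. After LPS + IL4 the call was kept under 13 of 25 settings and lost with TMM (-0.12), DESeq2 (-0.17), covered ends (-0.0200) and capped reads (-0.16), and the range with 1 library left out was -0.34 to -0.27. The upstream part passed under 8 of 25 settings and the body under 1 of 25. For the body, covered ends gave 0.0014. The permutation tests of genotype on interval (-0.18) and upstream part (-0.20), with the mean of both days as the unit, had an exact p of 0.2 and 0.1, where 0.1 is the smallest possible.

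With the replicate block the log2 changes were 0.92 in WT, 0.66 in the mutant, -0.31 for genotype after LPS + IL4 (adjusted p = 0.0409) and -0.26 for the difference of the activation effects (adjusted p = 0.463). Apart from the body and the number of windows in the mutant, the block changed no call on reads given in the report.

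Called windows numbered 1 with windows of 10 kb in WT, and 1 in the mutant with TMM, with windows of 2.5 or 10 kb and with the replicate block. With 1 library left out they numbered 2 to 3 in WT and 1 to 2 in the mutant. For LPS, leaving out 1 library gave a genotype difference of -0.0127 to 0.16, and the mutant difference from LPS + IL4 ran from 0.0263 to 0.31, passing without mutant LPS + IL4 replicate 1 (adjusted p = 0.0466). WT LPS against rest turned to 0.0200 with the covered ends within 1 Mb as denominator. Without depth, LPS libraries give no read level of Ighg1.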
